A study of Homo sapiens with 6 samples.

Results

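Interferon-stimulated genes were followed in NB4 cells treated with ATPR through 10 array probes chosen by their catalogue identifiers. Each probe was assigned to 1 gene, namely ISG15 (A_23_P819), MX1 (A_23_P17663), IFI44 (A_23_P23074), IFI44L (A_23_P45871), OAS1 (A_23_P64828), OAS2 (A_23_P204087), OAS3 (A_23_P47955), IFIT1 (A_23_P52266), BST2 (A_23_P39465) and IFI27 (A_24_P270460). Of these 10 probes, 8 were among the 138405 probes of the arrays used here, and the IFI44 and OAS3 probes were not analysed here. The files give identifiers and probe sequences but no gene names, so the assignment of genes is that of the identifiers and was not aligned to transcripts.

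NB4 is an established line of acute promyelocytic leukemia that carries the PML-RARA fusion, and ATPR is a derivative of all-trans retinoic acid. The study followed a long non-coding RNA in leukemia cells, and its arrays screened for RNAs that ATPR changes. From these same arrays, the paper lists type I interferon signaling and defense response to virus among its most enriched upregulated terms. The control group (Solvent, 72 h) and the ATPR group (ATPR, 72 h) had 3 arrays each, which the methods describe as independent experiments. The treatment protocol, the same for both groups, has the cells irradiated and then cultured in RPMI medium with serum, and it states no concentration of ATPR. The paper describes ATPR as dissolved in ethanol and mentions no irradiation. The identity of the cells could not be checked against marker genes, since the files name no gene for the probes of such genes. Total RNA of all cells in a culture was labelled, so more cells with a transcript and more transcript per cell cannot be told apart.

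Interferons are secreted proteins that act through receptors at the cell surface. Signals from these receptors reach the nucleus, where transcription factors bind the interferon-stimulated response element, a pair of GAAA blocks, in the promoters of the target genes. Many of the products act against viruses. In promyelocytic leukemia cells, retinoic acid is known to induce differentiation together with a number of interferon-stimulated genes.

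Of the 8 probes, 7 were brighter in the ATPR group, BST2 least of them at 5.85-fold after scaling. The other, for MX1, stayed near background in both groups. The probes are oligonucleotides of 60 bases, and 2 are shown here, 1 that was detected with ATPR and 1 that was dim throughout. OAS1 was well above background on every ATPR array and on none of the control arrays, and MX1 was so on no array. The OAS1 probe is given whole and the MX1 probe by its first 30 bases, each from 5′ to 3′.
OAS1 probe A_23_P64828: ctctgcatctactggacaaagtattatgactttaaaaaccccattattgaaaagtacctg
MX1 probe A_23_P17663: cagcttatttcctcatttttataatgtccc

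The longest run of bases that a probe of the 8 shared with any other probe on the array, on either strand, was between 14 and 16 bases. No other probe of the array thus covered the same stretch, and each gene was read here from 1 spot per array. Whether other probes cover other parts of these transcripts cannot be told without gene names. The GC content was 55.0% for ISG15, 35.0% for OAS1 and 38.3% for MX1, against a median of 43.3% over all probes, and the IFI27 probe was the lowest of the 8 at 30%.

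The 6 arrays held 31233 probes that were well above background on every array, by the flag of the extraction program, and each array was scaled to the 75th percentile of these probes. As log2 before scaling, this percentile averaged 8.85 ± 0.16 under Solvent and 7.87 ± 0.15 under ATPR (SD, n = 3 each), while the E1A spike-in probes, RNA added in known amounts, were 0.36 higher on average in the ATPR group. The GAPDH control probes near the 3′ end exceeded those near the 5′ end by 1.07 ± 0.13 under Solvent and by 1.34 ± 0.16 under ATPR (SD of log2, n = 3 each), and the groups did not overlap. The same gap for PGK1 was 2.92 ± 0.22 and 3.03 ± 0.10, and the groups overlapped. These gaps are signs of RNA quality, and their part in the results was not tested. The Solvent arrays shared 1 slide and the ATPR arrays 2 others, with replicate 3 alone on its slide, so that group and slide cannot be told apart. A probe entered the tests when the whole Solvent trio or the whole ATPR trio was well above background, which left 44839 probes. Calls required an adjusted p below 0.05 from limma together with a change of at least 2-fold.

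**Figure D1:**
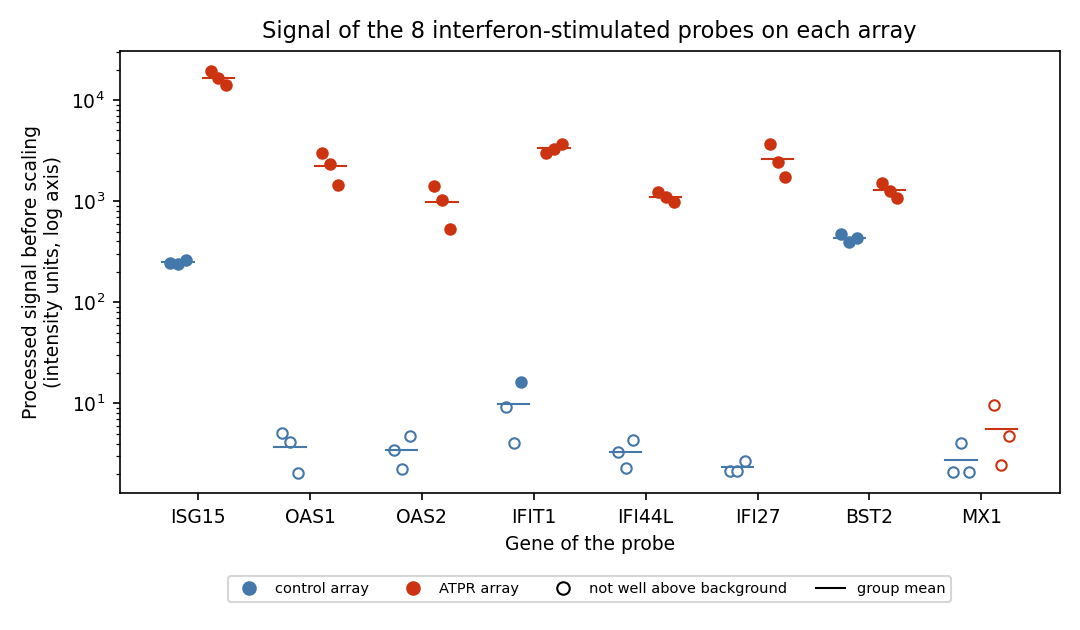
Processed signal before scaling (log axis) of the 8 probes on each of 3 control and 3 ATPR arrays, with filled points for spots well above background, open points for the others and lines for group means. The ATPR points of 7 probes lie above all control points of the same probe, and the MX1 points of the groups overlap.

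ISG15 encodes a small protein resembling ubiquitin that is attached to other proteins during antiviral responses. Its processed signal was 246, 240.2 and 259.9 on control replicates 1, 2 and 3 and 19411, 16382 and 14142 on the ATPR replicates. The transcript was thus present in the control cells, with little spread, and every ATPR array lay far above them. After scaling the log2 level averaged -0.89 ± 0.13 under Solvent and 6.14 ± 0.09 under ATPR (SD, n = 3 each). The difference of 7.03 ± 0.18 (standard error) on the log2 scale, or 131-fold, passed limma's test with an adjusted p of 3.27e-06. Among the 31233 probes that every array measured above background, this increase ranked 12. The size rests on the scale, and against the E1A spike-in probes it was 51.6-fold.

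BST2, also called tetherin, encodes a membrane protein that holds budding virus particles on the cell surface. It was the other gene measured in both groups, with signals of 469, 392 and 429 under Solvent and of 1519.8, 1257 and 1084 under ATPR. The groups did not overlap, but the rise was much smaller than that of ISG15. After scaling its log2 level averaged -0.10 ± 0.07 under Solvent and 2.44 ± 0.10 under ATPR (SD, n = 3 each). The difference of 2.55 ± 0.18 (standard error), or 5.85-fold, had an adjusted p of 5.73e-05 in limma. The increase ranked 607 among the same 31233 probes. Scaled to the E1A probes it was 2.31-fold and still called (limma, adjusted p = 0.00111). Of these 31233 probes, 13.9% were called higher, and ISG15 and BST2 were both among them.

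The OAS genes encode oligoadenylate synthetases, which sense double-stranded RNA and make the short oligonucleotides that activate the nuclease RNase L. OAS1 gave signals of 5.06, 4.12 and 2.04 under Solvent, none of them well above background, against 2977, 2326 and 1434 under ATPR. OAS2 gave 3.47, 2.22 and 4.70 under Solvent, again none well above background, against 1406, 1036 and 529 under ATPR. Both were well above background on each ATPR array, and the groups lay far apart. Where a group has no spot above background, only a bound on the fold change can be given, which divides the ATPR mean by the detection limit of the control arrays, the dimmest signal that still passed as well above background. With ATPR, OAS1 was at least 519-fold higher (limma, adjusted p = 9.03e-06) and OAS2 at least 221-fold higher (limma, adjusted p = 8.83e-06). The p-value of a probe given as a bound was computed from its dim control signals and does not test the bound. Some of these signals may be small substitute values set by the extraction program and not measurements. OAS1, OAS2, IFIT1, IFI44L and IFI27 entered the tests only through the ATPR group, so their p-values are a description and lend no support.

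IFIT1 binds viral RNA whose cap lacks the methylation of host transcripts. Its signal was 9.23, 4.10 and 16.3 on control replicates 1, 2 and 3, and only the last was well above background. On the ATPR arrays it was 3024, 3252 and 3683. With each control array at its detection limit or at the probe's own signal, whichever was higher, IFIT1 was at least 608-fold higher with ATPR (limma, adjusted p = 1.36e-05). Its spot on control replicate 1 lay at -5.75 after scaling, above that array's limit of -5.95, and was still not well above background. The limits can therefore be too low and the bounds too high. Each bound is approximate and holds only for this scale. The control arrays differed more for IFIT1 than for any other of the 7 tested probes, with an SD of 0.86 on the log2 scale, but the gap between the dimmest ATPR and the brightest control array was 8.43 after scaling.

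IFI44L and IFI27 are interferon-stimulated genes with less settled functions, and IFI27 encodes a small membrane protein found in mitochondria. The IFI44L signal was 3.29, 2.32 and 4.31 under Solvent and rose to 1219, 1109.9 and 983 under ATPR. The IFI27 signal was 2.16, 2.13 and 2.68 under Solvent and rose to 3639, 2458 and 1714 under ATPR. Neither probe was well above background on any control array, and both were so on every ATPR array. With ATPR, IFI44L was at least 265-fold higher (limma, adjusted p = 1.90e-06) and IFI27 at least 599.5-fold higher (limma, adjusted p = 1.79e-06). The bounds of different probes have no order of effect size between them, because each stops at the detection limit.

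MX1 encodes a GTPase of the dynamin family that blocks influenza and other viruses. Its probe was not well above background on any of the 6 arrays and was therefore not tested. The signal was 2.09, 4.06 and 2.10 under Solvent against 9.58, 2.45 and 4.76 under ATPR, so that the groups overlapped before scaling. By the extraction program's weaker criterion, positive and significant against background, MX1 passed on 1 control array and on 3 ATPR arrays. The control signals of 2.09 and 2.10 failed it and may be substitute values set by that program. The exact permutation test gave a two-sided p of 0.2 before scaling and of 0.1 after scaling, the smallest that 3 arrays against 3 allow, and the scaled signals differed by 1.86 on the log2 scale. Scaling alone moves probes that are nowhere well above background upwards in the ATPR group. The 82939 probes of this kind, dim on each of the 6 arrays had a median log2 difference of -0.04 before scaling and 0.93 after it, and 0.869% of them differed by as much as MX1. After scaling, 73.8% of them had ATPR arrays above all control arrays, as MX1 did. The MX1 difference is one between dim spots and is not given as a fold change of the transcript. With 1 probe, near background, the data do not show whether the MX1 transcript changed.

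Of the 8 probes, 7 were thus tested, all 7 were called higher and 0 were called lower, where limma called 12.0% of all tested probes higher and 23.8% lower. At an unadjusted p below 0.05 with the methods' t-test, 0 were called lower as well. This count says little by itself for 5 of the 7. They passed the filter only through the ATPR group, and 90.8% of all probes that entered in that way were called higher. Among the probes that, like 4 of these 5, were not well above background on any control array, 426 of 426, or 100.0%, were called higher. The groups did not overlap for the 7 probes, which was so with ATPR higher for 27.0% of all tested probes and with ATPR lower for 32.0%. As a description, the median log2 difference of the 7 was 8.05 with those 5 probes at their bounds. It was 9.40 with the dim control spots at their processed signal. Over all tested probes the median was -0.04. Both medians of the 7 are set by the 5 probes that the filter admitted through the ATPR group.

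**Figure D2:**
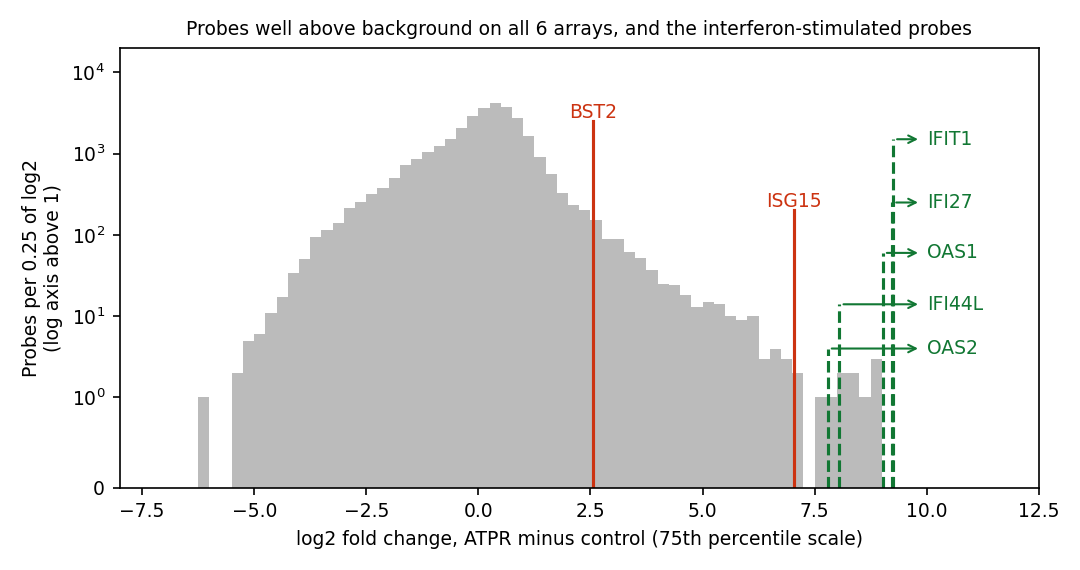
Histogram of log2 fold changes (ATPR minus control) of the 31233 probes that every array measured above background, with red lines for ISG15 and BST2 and dashed green lines with arrows for the lower limits of OAS1, OAS2, IFIT1, IFI44L and IFI27. BST2 at 2.55 lies in the upper flank and ISG15 at 7.03 lies in the tail. On this scale each of the 5 limits lies above ISG15.

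The 7 tested probes differed in how evenly the ATPR arrays rose. The SD between ATPR arrays on the log2 scale was 0.04 for IFI44L, 0.09 for ISG15 and 0.10 for BST2. It was 0.29 for IFIT1, 0.40 for both OAS1 and IFI27, and 0.59 for OAS2. The median over all tested probes, which include probes that are dim under ATPR, was 0.36, with IFI44L, ISG15, BST2 and IFIT1 below it and OAS1, IFI27 and OAS2 above it. On the reported scale, ATPR replicate 3 gave the lowest level for 6 of the 7 probes, where it was lowest for 36.0% of all tested probes. IFIT1 was the exception, lowest on ATPR replicate 1 and highest on ATPR replicate 3. The E1A scale kept replicate 3 lowest for OAS1, OAS2 and IFI27 but not for ISG15, BST2 and IFI44L. On that scale ATPR replicates 1, 2 and 3 gave 5.46, 5.29 and 5.43 for ISG15 and 1.78, 1.59 and 1.73 for BST2. The IFI44L values were 1.47, 1.41 and 1.58. ATPR replicate 3 was also the only array on its slide, so the array and its slide cannot be told apart. Relative to the ATPR group mean, the log2 level of OAS2 was 0.45, 0.21 and -0.66 on ATPR replicates 1, 2 and 3, and that of IFIT1 was -0.29, 0.01 and 0.28. Against the control mean on the reported scale, ISG15 was 7.08 higher on the slide with ATPR replicates 1 and 2. It was 6.94 higher on the slide with replicate 3, as log2 differences. For BST2 the same values were 2.60 and 2.44.

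**Figure D3:**
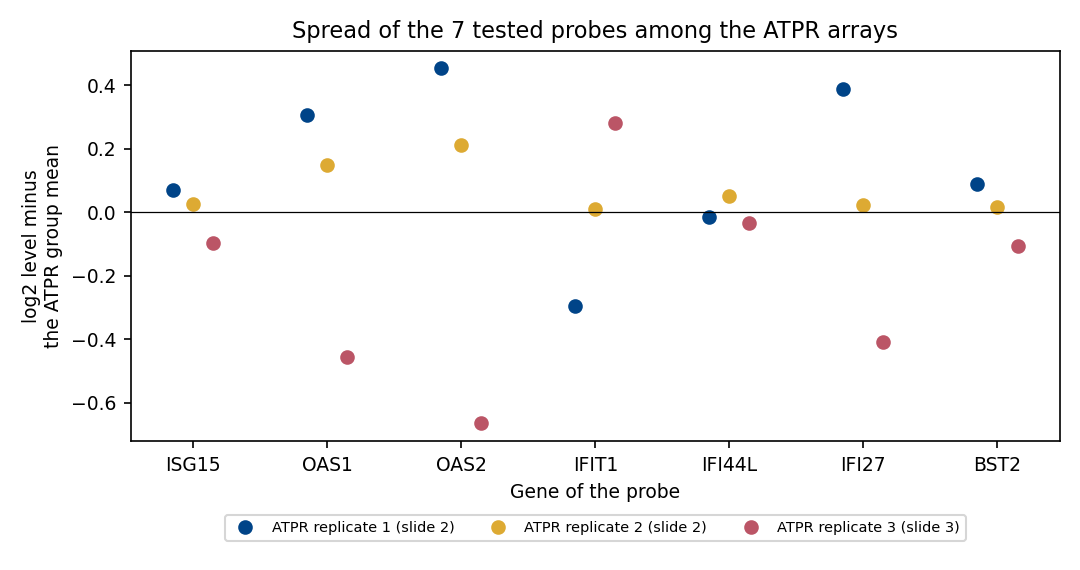
Scaled log2 level of each tested probe on ATPR replicates 1, 2 and 3 minus the mean of the ATPR group, with the slide of each array in the legend. On this scale, the reported one, replicate 3 is lowest for 6 probes, with the widest gap for OAS2, and is highest for IFIT1.

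The direction of the 7 probes did not depend on the scale. ISG15 lay between 5.69 and 7.19 and BST2 between 1.21 and 2.71 on the log2 scale over the alternatives run. The lower limits moved more, because a background correction that adds an offset to every signal shrinks the distance from dim spots. Under normexp background correction the bounds were 24.1-fold for OAS2, 33.2-fold for IFI44L, 63.2-fold for OAS1 and 67.7-fold for IFI27, and the limit for IFIT1 was 78.5-fold. ISG15 was then 93.8-fold, above each of these limits. On the E1A scale the limits were 87.4-fold for OAS2, 105-fold for IFI44L, 205-fold for OAS1, 237-fold for IFI27 and 239.9-fold for IFIT1. Over the alternatives, the highest adjusted p was 0.000465 for ISG15 and 0.00123 for BST2, both from limma with a replicate block. The other 5 probes entered only through the ATPR group, so their direction and p-values lend no support. The highest adjusted p among them, 0.00158 for IFIT1, came from the methods' t-test.

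**Figure D4:**
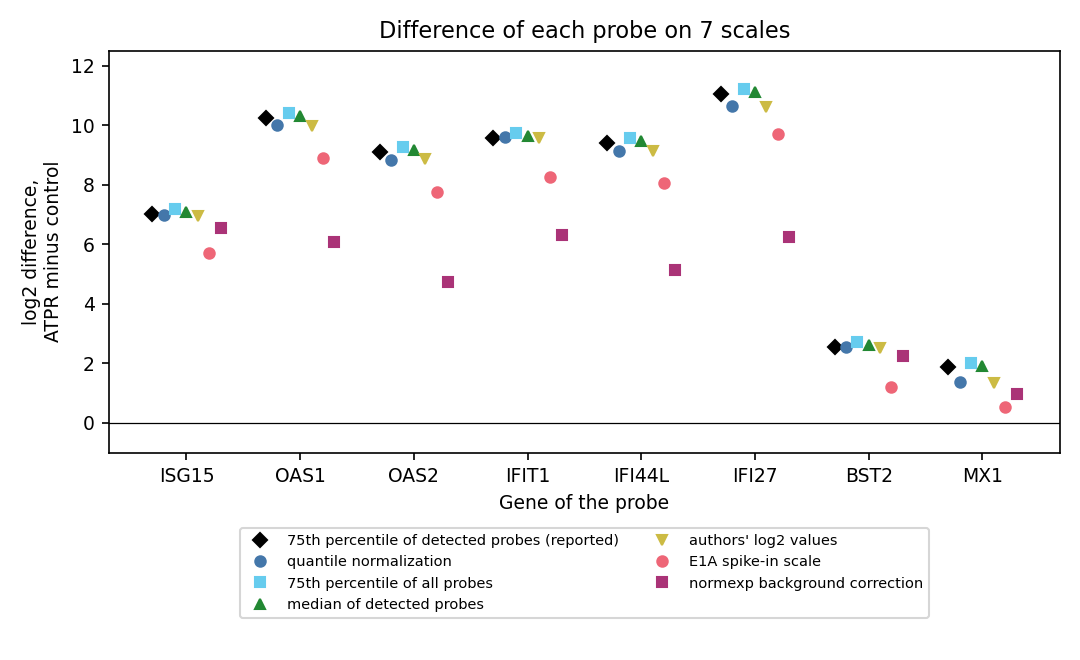
Log2 difference (ATPR minus control) of the 8 probes on 7 scales, the reported one as black diamonds. Dim spots enter at the signal of each scale and not at a bound. Differences are above 0 for each probe on each of these scales, and the spike-in scale and normexp background correction give the lowest values.

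The promoters of these genes are shown because the response element of interferon-stimulated genes is known. The RefSeq table (GRCh38.p14) held windows from 250 bases before to 50 bases after the gene start for 7 of the 8 genes, and for OAS2 it held none. A search on both strands for 2 GAAA blocks with any 2 bases between them found the motif in 6 of the 7 genes, where 3.57% of all windows and 4.38% of all genes held it. With 1 base between the blocks it was found in OAS1 and MX1, where 3.12% of all windows held it. All 7 genes had one or the other, against 7.83% of all genes in the table. The genes were named as interferon-stimulated, so a high share could be foreseen and is not a result about ATPR. Among the 7 genes the 2 motifs overlapped each other only in MX1. The 7 stretches of 30 bases below each show 1 match in capitals, read along the strand of the gene, so that a match on the other strand appears as blocks of TTTC.
ISG15, chr1:1013380-1013409, plus strand: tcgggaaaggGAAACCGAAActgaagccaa
IFIT1, chr10:89392510-89392539, plus strand: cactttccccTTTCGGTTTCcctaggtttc
IFI27, chr14:94110618-94110647, plus strand: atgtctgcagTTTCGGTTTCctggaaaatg
BST2, chr19:17405735-17405764, minus strand: ctgggaaactGAAACTGAAAacctaattaa
IFI44L, chr1:78620365-78620394, plus strand: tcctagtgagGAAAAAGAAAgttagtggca
OAS1, chr12:112906935-112906964, plus strand: cccttctgagGAAACGAAAccaacagcagt
MX1, chr21:41420559-41420588, plus strand: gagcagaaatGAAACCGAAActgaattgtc

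The matches printed for IFIT1 and IFI27 began 103 and 108 bases before the gene start, and those of BST2 and IFI44L 124 and 73 bases before it. In ISG15 a second match overlapped the printed one and began 113 bases before the start. That of OAS1 lay closest among the genes other than MX1, at 17 bases before the start. IFI44L held an exact repeat of 85 bases whose copies lay 91 bases apart, so the same match occurred again at 164 bases before the start. IFIT1, BST2 and IFI27 had 2 matches each as well. MX1 had 3 annotated starts with matches at each of them, and the one printed began 12 bases after the most upstream start. A match is a run of letters and not a measured binding site. The MX1 probe stayed near background and does not show whether its transcript changed, so it is no contrast to the other genes.

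**Figure D5:**
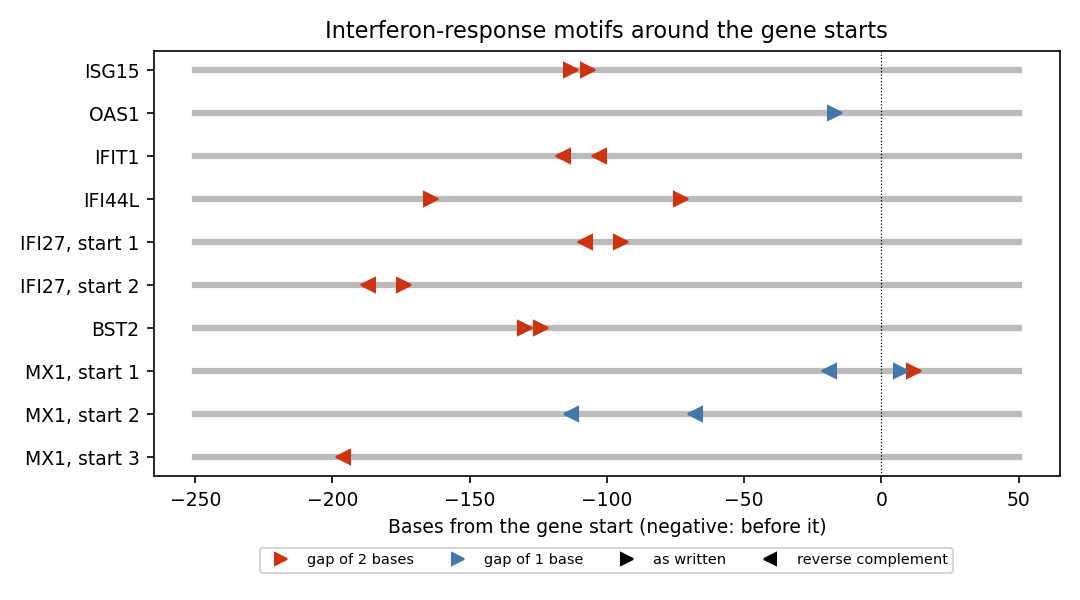
Positions of the motif with a gap of 2 bases (red) and of 1 base (blue) in windows from 250 bases before to 50 bases after each annotated gene start, with arrowheads for the strand. Matches lie between 187 bases before and 12 bases after the start in the genes other than MX1 start 3, where the match lies 196 bases before it.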

How the data were processed

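RNA of 6 cultures, 3 Solvent and 3 ATPR, was labelled with Cy3 and hybridized to single-colour Agilent arrays. The authors deposited spot intensity files from Agilent Feature Extraction (version 10.7.1.1, header build hg19), in which the program had subtracted background and replaced the dimmest signals by small surrogate values. The authors also deposited normalized log2 values, by a method not given in the sources used here, and these served as an alternative. The paper mentions normalization relative to the control. The deposited values are levels and not ratios, such as 7.27 for ISG15 on control replicate 1. Here, the processed signal was averaged over the spots of a probe after outlier spots had been dropped, converted to log2 and scaled as the report describes. Where a probe had several spots, at least 50% of them had to be well above background for it to count as such. Tests used limma 3.58.1 in R 4.3.3 (lmFit, eBayes, two-sided, Benjamini-Hochberg) and were tested on simulated data. Tables were made in Python 3.11.15 with pandas 2.3.3 and numpy 2.4.6, and plots in matplotlib 3.10.9. None of the spots of the 8 probes was saturated or marked as an outlier.

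All 10 named probes are accounted for. The members, the lists and the motifs were chosen with earlier results of these data known. Counts of other interferon pathway genes and cell type markers were planned but could not be made without gene names for the other probes. Precision is limited by the number of arrays. Alternatives covered scaling, background correction, the authors' values, filters, moderation, slide, replicate number, single arrays, the methods' t-test and a stricter adjusted p of 0.01.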

Additional observations from a re-analysis of the deposited data

How the results depend on the processing

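Under each alternative the tested interferon-stimulated probes kept a positive difference and their call. When all 6 arrays had to be well above background, only 2 of them, ISG15 and BST2, entered the test. Both were called, with a median of 4.79. OAS1, OAS2, IFIT1, IFI44L and IFI27 entered only through the ATPR group, a route by which 90.8% of all probes were called higher. Their kept calls therefore lend no support. With no filter on dim probes MX1 was also called (limma, adjusted p = 0.0219), on a scale that lifts dim probes, and 34042 of all probes were called higher. With dim control spots not set to a bound, the median log2 difference of the 7 was 8.06 on the E1A spike-in scale. With normexp background correction it was 6.08. The MX1 difference was 0.52 and 0.95 in the same order. Over all tested probes, where the reported scale called 5363 higher and 10667 lower, the E1A scale gave 1234 higher and 28647 lower, as it moved their median from -0.04 to -1.38. Normexp gave 3272 higher and 3144 lower with a median of 0.41, and the filter on all 6 arrays left 4501 lower. A replicate block called 7 of the 7 higher, with 5230 of all probes higher and 10336 lower, and changed no call of the 7. Same-numbered arrays had deviations that correlated at 0.25, -0.07 and -0.28, and the numbers were therefore not treated as pairs. With slide as a random block the 7 were called and 4433 of all probes were higher. No slide held both groups, so this setting cannot separate slide from treatment. Leaving out each array kept 7 calls, with a median between 9.15 and 9.58. Signal over background limits OAS1, OAS2, IFI44L and IFI27 to bounds and leaves MX1 near background.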
